A study of Homo sapiens with 6 samples.

Results

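The MAP kinase phosphatase and Sprouty feedback genes are 10 genes whose products switch off signalling through the mitogen-activated protein kinases. They were chosen by symbol: DUSP1, DUSP2, DUSP4, DUSP5, DUSP6, DUSP10, SPRY1, SPRY2, SPRY4 and SPRED1. Each was measured by exactly 1 transcript cluster (the set of probes that reports 1 gene) that the array annotation pairs with a single symbol, so all 10 were tested, among 18417 genes and 19460 transcript clusters in all. The samples were AGS cells, an established human gastric adenocarcinoma line, 48 hours after transfection either with CTNNB1 siRNA, which targets the beta-catenin gene (3 arrays), or with a non-targeting control siRNA (3 arrays). All cells were of this 1 line, and the number of siRNAs in each reagent is not given in the sources used here. The values are log2 expression from Affymetrix Human Gene 1.0 ST arrays, and the number of arrays limits the precision of every value.

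MAP kinase cascades carry growth factor and stress signals from the membrane to the nucleus, where they switch on genes that include their own inhibitors. Dual-specificity phosphatases remove the activating phosphates from the kinases themselves. DUSP1, DUSP2, DUSP4 and DUSP5 act in the nucleus, DUSP6 acts on ERK in the cytoplasm, and DUSP10 acts mainly on p38 and JNK. Sprouty proteins and the related SPRED1 act further up, between the growth factor receptors, RAS and RAF. Because ERK activity induces several of these genes, their messenger RNA is often read as a gauge of pathway output.

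CTNNB1 itself was lower on every CTNNB1 siRNA array (10.27, 10.78 and 10.58 on the log2 scale for replicates 1 to 3) than on any control siRNA array (11.92, 11.76 and 11.75), so the target matched the label of all 6 arrays. The log2 difference of CTNNB1, CTNNB1 siRNA minus control siRNA, was -1.27 (SE 0.17). One array was unlike the rest. Over the tested clusters CTNNB1 siRNA replicate 1 correlated with the others at a Pearson r of 0.963 to 0.967, while all pairs without it reached 0.984 to 0.993. For the 10 genes, differences that it moved by more than 1.5 times are also given without it. Of 5 epithelial marker genes, all 5 were higher and 0 passed the test, with a median log2 difference (CTNNB1 siRNA minus control siRNA) of 0.49, or 0.25 without CTNNB1 siRNA replicate 1. The differences were 0.96 for KRT19, whose groups did not overlap, 0.51 for KRT8, 0.49 for KRT18, 0.13 for EPCAM and 0.016 for CDH1. Their mean level relative to the control mean was 0.74, 0.25 and 0.28 on CTNNB1 siRNA replicates 1 to 3 and 0.19, -0.097 and -0.090 on control siRNA replicates 1 to 3. The leukocyte gene PTPRC was at 2.60 to 2.79 over all 6 arrays, and the other leukocyte gene, CD68, at 7.86 to 8.85. Over 6 marker genes of leukocytes, fibroblasts and endothelium, 5 were higher and 1 lower, 0 passed the test, and the mean level relative to the control mean was 0.13 to 0.33 on CTNNB1 siRNA arrays and -0.078 to 0.064 on control arrays. The log2 differences were 0.53 for CD68, 0.39 for PECAM1, 0.36 for COL1A1, 0.034 for COL3A1, 0.020 for PTPRC and -0.16 for VWF. The groups did not overlap for PECAM1, COL1A1 and VWF, 3 of the 6, against 13.6% of clusters. Of the 6, 4 (PTPRC, COL3A1, PECAM1 and VWF) were among the dimmest 40% of clusters. The part of these markers in the results below was not tested.

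None of the 10 genes passed the test across all transcript clusters (limma, 2-sided, Benjamini-Hochberg adjusted p under 0.05), where 0.00514% of clusters did, and the smallest adjusted p of a member was 0.477. CTNNB1, the gene that was silenced, did not pass it either (limma adjusted p = 0.232, rank 5 by p), so not passing does not show an unchanged gene. At an unadjusted p under 0.05 there were 2 members, DUSP1 and DUSP10, both higher after CTNNB1 siRNA, against 5.64% of all tested clusters in either direction and 3.04% higher. The count was 1 without CTNNB1 siRNA replicate 3, where 5.65% of clusters had such a p. The groups did not overlap for 3 members, DUSP1, DUSP4 and DUSP10, against 13.6% of clusters. All 6 phosphatase genes had a positive log2 difference with a median of 0.48. That median was 0.20 without CTNNB1 siRNA replicate 1, 0.26 without control siRNA replicate 1, 0.20 with arrays weighted by quality and 0.14 without replicate 1 of both groups. The difference of DUSP6 turned negative with arrays weighted by quality and without replicate 1 of both groups. Of the 4 Sprouty and SPRED genes, 3 were lower and 1 higher, with a median of -0.10, which ran from -0.32 without control siRNA replicate 1 to 0.059 without control siRNA replicate 3. In all 7 of 10 were higher, where 49.2% of clusters were, but 5 of 10 with arrays weighted by quality or without replicate 1 of both groups. The median over all 10 was 0.15, against -0.0045 over all tested clusters, and it was 0.046 without control siRNA replicate 1 and -0.0041 without replicate 1 of both groups.

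**Figure D1:**
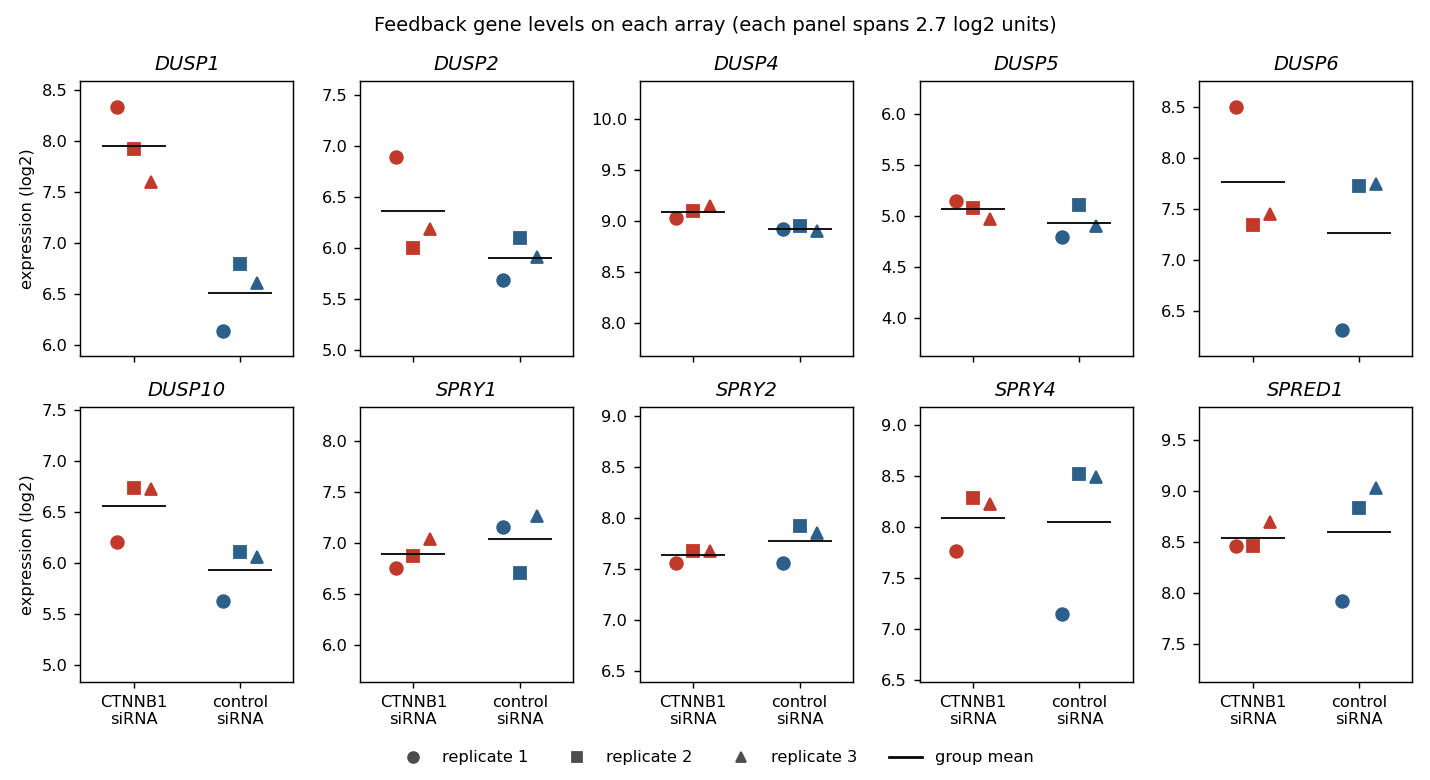
Log2 expression of the 10 genes on each array, 1 panel per gene, with CTNNB1 siRNA arrays (red) left of control siRNA arrays (blue), marker shapes for replicate numbers and black lines for group means. The groups are clear of each other for DUSP1 and narrowly apart for DUSP10 and DUSP4, and control siRNA replicate 1 is the low point of most other panels; levels are not comparable between panels because each gene has its own probes.

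DUSP1 showed the largest difference of the 10. It encodes a nuclear phosphatase that is itself an immediate early gene and acts on p38, JNK and ERK. DUSP1 (transcript cluster 8115831) read 8.33, 7.92 and 7.59 on CTNNB1 siRNA replicates 1 to 3 and 6.14, 6.79 and 6.61 on control siRNA replicates 1 to 3. Each CTNNB1 siRNA array lay above each control array, by more than the spread within either group. The means were 7.95 ± 0.37 after CTNNB1 siRNA and 6.51 ± 0.34 after control siRNA (SD, n = 3 each), which is a log2 difference of 1.44 (SE 0.24), or 2.71-fold with a 95% confidence interval of 1.85 to 3.97. Its unadjusted p in limma (0.000319, adjusted p = 0.477) ranked 13 among all 19460 clusters. The exact 2-sided permutation p over the 6 arrays was 0.1, the smallest that 3 arrays against 3 can give. The log2 difference stayed between 1.25 and 1.62 when any 1 array was left out, with limma adjusted p between 0.162 and 0.937, and it was 1.25 without CTNNB1 siRNA replicate 1. It was 1.06 without replicate 1 of both groups (limma adjusted p = 0.157).

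DUSP10, a phosphatase of p38 and JNK, had the next largest difference. DUSP10 (transcript cluster 7924450) read 6.21, 6.73 and 6.72 on CTNNB1 siRNA replicates 1 to 3 and 5.63, 6.11 and 6.06 on control siRNA replicates 1 to 3. All CTNNB1 siRNA arrays were above all control arrays, though CTNNB1 siRNA replicate 1 cleared the highest control array only narrowly. The log2 difference was 0.62 (SE 0.20), or 1.54-fold with a 95% confidence interval of 1.11 to 2.13, with an unadjusted p of 0.0161 and an adjusted p of 0.816 in limma. The unadjusted p of DUSP10 was above 0.05 without CTNNB1 siRNA replicate 2 or 3 or control siRNA replicate 1 (0.0571, 0.0569 and 0.0604, limma adjusted p at least 0.657). The log2 difference was 0.79 without CTNNB1 siRNA replicate 1 (limma unadjusted p = 0.00153, adjusted p = 0.398) and 0.47 without control siRNA replicate 1. It was 0.64 without both (limma unadjusted p = 0.00148, adjusted p = 0.348). With arrays weighted by quality it was 0.70 (limma unadjusted p = 0.000936, adjusted p = 0.222).

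The upstream sequences of DUSP1 and DUSP10, the pair with an unadjusted p under 0.05 over all arrays, are shown beside that of SPRY4, a gene whose groups overlapped. Each run is the 250 bases before a RefSeq transcription start in GRCh38.p14, on the gene's strand (the minus strand for all of them), with the core TGACG of the cyclic AMP response element, or its reverse complement, in capitals. DUSP1 lies at chr5:172771196-172771445, DUSP10 (the outer of its 2 starts) at chr1:221742090-221742339 and SPRY4 at chr5:142324248-142324497.
DUSP1: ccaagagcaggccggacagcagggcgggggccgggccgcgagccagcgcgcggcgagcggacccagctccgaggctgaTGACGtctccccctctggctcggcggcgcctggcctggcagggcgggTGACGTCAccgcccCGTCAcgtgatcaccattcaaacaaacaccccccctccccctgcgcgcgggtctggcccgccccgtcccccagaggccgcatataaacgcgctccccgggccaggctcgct
DUSP10: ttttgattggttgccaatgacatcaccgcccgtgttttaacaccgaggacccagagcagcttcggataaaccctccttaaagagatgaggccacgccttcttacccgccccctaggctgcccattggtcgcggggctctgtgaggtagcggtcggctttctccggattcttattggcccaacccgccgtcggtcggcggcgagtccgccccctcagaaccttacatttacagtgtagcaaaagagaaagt
SPRY4: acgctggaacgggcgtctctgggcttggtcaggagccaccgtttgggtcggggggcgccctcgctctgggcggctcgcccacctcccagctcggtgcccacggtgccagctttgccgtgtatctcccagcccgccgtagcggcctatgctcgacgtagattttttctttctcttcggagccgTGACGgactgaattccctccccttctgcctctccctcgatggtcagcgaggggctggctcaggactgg
The DUSP1 window held 4 such cores, of which an overlapping pair forms the full palindrome TGACGTCA. The full palindrome was found in 1 of the 12 member windows and in 1.65% of all 35116 such windows. The core was in 3 of the 12 and in 21.2% of all. SPRY4 held 1 core, 1 of the 3 windows of SPRY2 held another, and neither window of DUSP10 held one. The motif of the TCF and LEF factors that beta-catenin binds, searched on both strands as CTTTG followed by a pair of bases that are each A or T, was in 2 windows of SPRY2, in no other member window and in 12.0% of all windows. The AP-1 motif TGANTCA was in none of the 12 member windows and in 6.57% of all. Windows were read for 8 of the 10 genes, none for DUSP4 and DUSP5. A match is a description of letters, and no binding was measured here.

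DUSP4, a nuclear phosphatase of ERK and JNK, was the third gene whose groups were apart, by a small amount. It read 9.03, 9.11 and 9.15 on CTNNB1 siRNA replicates 1 to 3 and 8.93, 8.95 and 8.90 on control siRNA replicates 1 to 3. It varied least of the 10 genes, with a range of 0.25 over all 6 arrays. The log2 difference of 0.17 (SE 0.13) had a 95% confidence interval of -0.12 to 0.46 in limma, which lends each cluster part of the spread of all others and so widened the error of this gene (adjusted p = 0.816).

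DUSP2, a nuclear phosphatase first known from lymphocytes, and DUSP5, a nuclear phosphatase of ERK, overlapped between the groups. DUSP2 read 6.89, 6.01 and 6.19 on CTNNB1 siRNA replicates 1 to 3, against 5.69, 6.10 and 5.92 on control siRNA replicates 1 to 3. Its log2 difference of 0.46 (95% confidence interval -0.10 to 1.02) came mostly from CTNNB1 siRNA replicate 1, without which it was 0.20. DUSP5 read 5.14, 5.07 and 4.96 in CTNNB1 siRNA cells and 4.79, 5.10 and 4.89 in control siRNA cells, a log2 difference of 0.13 (95% confidence interval -0.20 to 0.46), which was 0.064 without control siRNA replicate 1 and 0.22 without control siRNA replicate 2. DUSP5 was the 1 member among the dimmest 40% of clusters, where the authors' processing compresses differences, so a small value there does not show an unchanged gene.

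DUSP6, the cytoplasmic phosphatase of ERK, gave no stable direction. It read 8.49, 7.34 and 7.45 on CTNNB1 siRNA replicates 1 to 3 and 6.31, 7.72 and 7.74 on control siRNA replicates 1 to 3. The highest and the lowest of the 6 values were thus both on a replicate 1, while replicates 2 and 3 of the CTNNB1 siRNA group lay below replicates 2 and 3 of the control group. The log2 difference was 0.50 (SE 0.44, 95% confidence interval -0.52 to 1.52) over all arrays, 0.13 without CTNNB1 siRNA replicate 1, 0.028 without control siRNA replicate 1 and -0.34 without both (unadjusted p = 0.0361 and adjusted p = 0.635 in limma). The interval runs from a level of 0.697 of control to 2.88 times control.

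**Figure D2:**
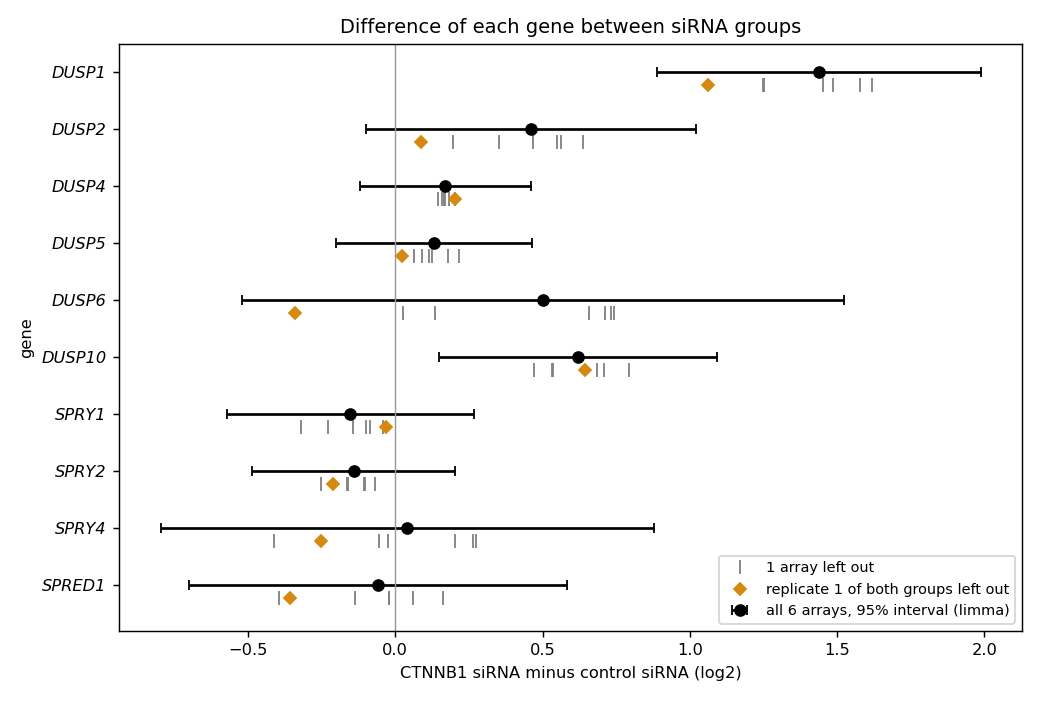
Log2 difference, CTNNB1 siRNA minus control siRNA, for each of the 10 genes over all 6 arrays (black, with 95% confidence intervals from limma), with any 1 array left out (grey ticks) and with replicate 1 of both groups left out (orange). The intervals of DUSP1 and DUSP10 lie above 0, and the values of DUSP6, SPRY4 and SPRED1 fall on both sides of 0 as arrays are left out.

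The Sprouty genes and SPRED1 showed no difference beyond the spread of the arrays. SPRY4, an inhibitor of growth factor signalling to RAS, read 7.77, 8.28 and 8.22 on CTNNB1 siRNA replicates 1 to 3 and 7.14, 8.52 and 8.49 on control siRNA replicates 1 to 3. Its log2 difference was 0.041 (SE 0.36, 95% confidence interval -0.80 to 0.88). SPRED1, which brings the RAS inhibitor neurofibromin to the membrane, read 8.45, 8.45 and 8.69 after CTNNB1 siRNA and 7.92, 8.83 and 9.03 after control siRNA, a log2 difference of -0.059 (SE 0.28, 95% confidence interval -0.70 to 0.58). For both genes control siRNA replicate 1 was the lowest of the 6 arrays and the other control arrays were the highest.

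Without CTNNB1 siRNA replicate 1 the log2 difference was 0.20 for SPRY4, -0.020 for SPRED1 and -0.086 for SPRY1. Without control siRNA replicate 1 it was -0.41 for SPRY4 (unadjusted p = 0.0815), -0.40 for SPRED1 (unadjusted p = 0.0491), -0.25 for SPRY2 and -0.098 for SPRY1, and the limma adjusted p was at least 0.937 for each. In that fit 6 of the 10 genes had groups that did not overlap, against 22.3% of all clusters with 3 arrays against 2. Without control siRNA replicate 2 the count was also 6, against 23.5%, and the log2 difference of SPRY4 was 0.27. Without replicate 1 of both groups the count was 7, against 38% with 2 arrays each. There 3 members had an unadjusted p under 0.05 in limma, against 7.49% of clusters. These were the phosphatase genes DUSP1 and DUSP10, both higher, and DUSP6, which was lower. SPRY2, an inhibitor that also binds the ubiquitin ligase CBL, read 7.55, 7.67 and 7.68 after CTNNB1 siRNA and 7.55, 7.93 and 7.85 after control siRNA over all arrays, a log2 difference of -0.14 (95% confidence interval -0.49 to 0.20). SPRY1 read 6.75, 6.87 and 7.04 after CTNNB1 siRNA and 7.15, 6.71 and 7.26 after control siRNA, a log2 difference of -0.15 (95% confidence interval -0.57 to 0.27), which was -0.32 without control siRNA replicate 2 and -0.043 without control siRNA replicate 3. SPRY1 was the 1 Sprouty gene for which control siRNA replicate 1 was not the lowest array.

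The control arrays also differed among themselves in these genes. Control siRNA replicate 1 was the lowest of all 6 arrays for 8 of the 10 genes, against 20% of all tested clusters, a count made after the values were seen. SPRY2 was among the 8 only by a near tie, at 7.55454 against 7.55459 on CTNNB1 siRNA replicate 1. Its level minus the mean of the other control arrays was -1.42 for DUSP6, -1.36 for SPRY4 and -1.01 for SPRED1, with a median of -0.39 over the 10 genes, against -0.024 over all clusters. DUSP4 (0.00013) and SPRY1 (0.17) were the members for which it was not lower. CTNNB1 siRNA replicate 1 was the highest of the 6 arrays for 4 of the 6 phosphatase genes (24.7% of all clusters) and for 0 of the 4 Sprouty and SPRED genes. Its level minus the mean of the other CTNNB1 siRNA arrays was 1.102 for DUSP6, 0.79 for DUSP2 and 0.57 for DUSP1, against -0.52 for DUSP10 and -0.49 for SPRY4.

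Genes that ERK activity induces were low on control siRNA replicate 1 as well. Of 13 such genes measured, 11 were lower on control siRNA replicate 1 than on both other control arrays, against 38.7% of all clusters, and the median gap was -0.54. EGR1, an immediate early transcription factor gene named here after its values were seen, read 9.41, 10.30 and 10.74 on CTNNB1 siRNA replicates 1 to 3 and 7.56, 10.00 and 10.34 on control siRNA replicates 1 to 3. ETV5, an ETS factor gene of growth factor signalling chosen in the same way, read 8.19, 8.67 and 8.67 after CTNNB1 siRNA and 7.91, 9.13 and 9.34 after control siRNA. For both, control siRNA replicate 1 was the lowest array, as it was for 8 of the 13 genes (20% of all clusters). CTNNB1 siRNA replicate 1 was the lowest array for 4 of the 13 (31.3% of all clusters) and the highest for 2 (24.7%). Its level minus the mean of the other CTNNB1 siRNA arrays was -1.11 for EGR1 and -0.48 for ETV5.

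**Figure D3:**
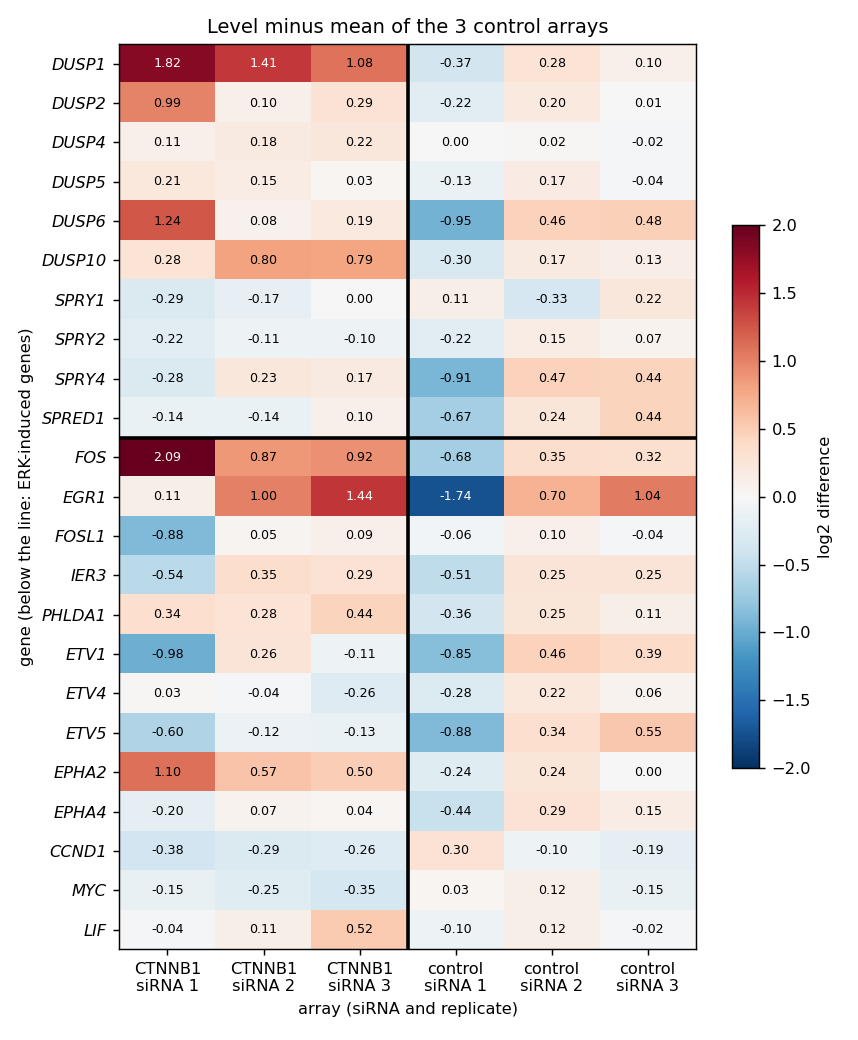
Level on each array minus the mean of the 3 control siRNA arrays (log2, colour and printed values) for the 10 feedback genes, above the line, and 13 ERK-induced genes, below it, with CTNNB1 siRNA arrays left of control siRNA arrays. Control siRNA replicate 1 is blue for most genes, with -0.95 for DUSP6 and -1.74 for EGR1, while DUSP1 is red on all 3 CTNNB1 siRNA arrays.

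Between the siRNA groups, the 13 ERK-induced genes split into 6 higher and 7 lower, with a median log2 difference of -0.032, and 0 passed the test. Without CTNNB1 siRNA replicate 1 they split into 9 higher and 4 lower with a median of 0.075, and without control siRNA replicate 1 into 4 higher and 9 lower with a median of -0.22. FOS, a subunit of AP-1, read 9.52, 8.30 and 8.36 on CTNNB1 siRNA replicates 1 to 3 and 6.76, 7.79 and 7.76 on control siRNA replicates 1 to 3, a log2 difference of 1.29 (SE 0.39, adjusted p = 0.816 in limma, unadjusted p = 0.0109). The difference of FOS was 0.89 without CTNNB1 siRNA replicate 1 and 0.55 without replicate 1 of both groups. EPHA2, an ephrin receptor gene, differed by 0.72 (SE 0.21), or 0.42 without replicate 1 of both groups, and PHLDA1, a gene of growth factor response, by 0.36 (SE 0.18), or 0.18 without control siRNA replicate 1. CCND1, the cyclin D1 gene, named here after its values were seen, had a log2 difference of -0.31, or -0.16 without control siRNA replicate 1. The groups did not overlap for these 4 of the 13 genes, against 13.6% of clusters. FOS was highest on CTNNB1 siRNA replicate 1, as DUSP1 was, but that array was the highest for only 2 of the 13 genes.

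Of 14 RAS-ERK genes measured, 8 were higher and 6 lower with a median log2 difference of 0.053, or -0.011 without replicate 1 of both groups, and 0 passed the test. MAPK3, the gene of the kinase ERK1, differed by 0.39 (SE 0.15). Its groups did not overlap, which held for 1 of the 14 genes, against 13.6% of clusters. SOS1, a RAS exchange factor gene, differed by -0.77 (SE 0.42) and MAP2K2, which encodes the kinase MEK2, by 0.33 (SE 0.20). SOS1 read 7.31, 9.09 and 8.80 on CTNNB1 siRNA replicates 1 to 3 and 9.40, 9.18 and 8.92 on control siRNA replicates 1 to 3, so CTNNB1 siRNA replicate 1 was far below the rest. Without that array the log2 difference was -0.22 for SOS1 and 0.11 for MAP2K2. Of 10 genes of the JNK and p38 cascades, 5 were higher and 5 lower with a median of -0.0063, and 0 passed. MAPK10, a JNK gene that was among the dimmest 40% of clusters, differed by -0.42 (SE 0.16). The groups did not overlap for 1 of the 10, MAPK10, against the same 13.6%. MAPK12, a p38 family gene that was also among the dimmest 40%, differed by 0.22 (SE 0.17), or 0.34 without CTNNB1 siRNA replicate 1 and 0.084 without CTNNB1 siRNA replicate 3. MAPK13, another p38 family gene, differed by 0.28 (SE 0.23), or 0.013 without CTNNB1 siRNA replicate 1.

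Of 15 other inhibitors of the pathway, 6 were higher, where 49.2% of clusters were, and 9 lower, with a median log2 difference of -0.21, and 0 passed the test. Without CTNNB1 siRNA replicate 1, which was the lowest of the 6 arrays for 8 of the 15 (31.3% of all clusters), they split into 8 higher and 7 lower with a median of 0.062. Their mean level relative to the control mean was -0.47, 0.040 and 0.091 on CTNNB1 siRNA replicates 1 to 3 and -0.052, 0.052 and -0.00018 on control siRNA replicates 1 to 3. DUSP9, a cytoplasmic phosphatase of ERK, differed by 0.39 (SE 0.14), and DUSP7, another of the same subfamily, by -0.83 (SE 0.37). IL17RD, which encodes the membrane inhibitor SEF, differed by -0.27 (SE 0.13). The groups were apart for these 3 genes and for LRIG1 (-0.24), an inhibitor gene named here after its values were seen. That made 4 of the 15, 1 higher and 3 lower, against 13.6% of clusters. However, DUSP7 read 7.53, 8.62 and 8.78 on CTNNB1 siRNA replicates 1 to 3 and 9.74, 8.85 and 8.83 on control siRNA replicates 1 to 3, so both replicate 1 arrays were far from the others. The difference of DUSP7 was -0.44 without CTNNB1 siRNA replicate 1, -0.53 without control siRNA replicate 1 and -0.14 without both.

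**Figure D4:**
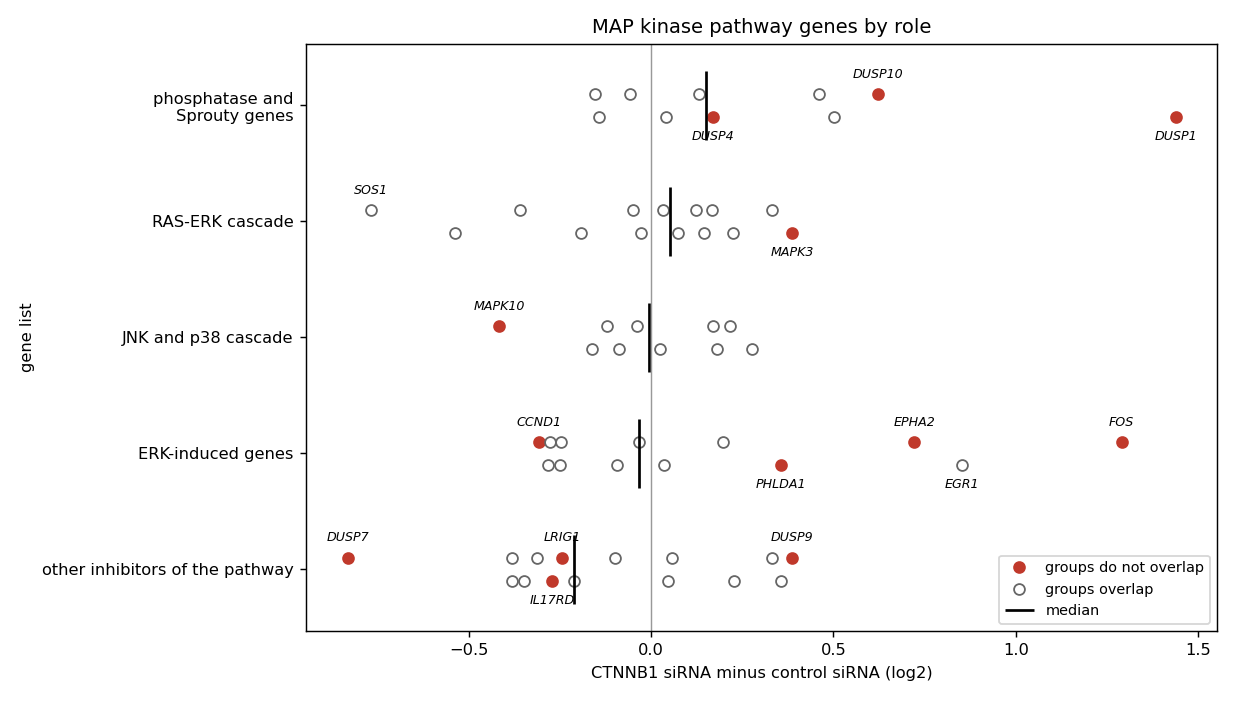
Log2 difference, CTNNB1 siRNA minus control siRNA, of the 10 feedback genes and of 4 lists of MAP kinase pathway genes, 1 point per gene, filled where the groups do not overlap, with list medians as vertical lines. DUSP1 at 1.44 and FOS at 1.29 lie farthest to the right, and the list medians run from -0.21 to 0.15.

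The genes whose levels followed those of DUSP1 most closely over the 6 arrays were LIPA, a lysosomal lipase gene, with a Pearson correlation of 0.991, DENND3, an exchange factor gene for a RAB GTPase, with 0.990, and SLPI, a secreted protease inhibitor gene, with 0.989. The 6 arrays fall into 2 siRNA groups and 18417 genes were searched, so values of this size describe the arrays and were not tested. The log2 differences of LIPA, DENND3 and SLPI were 0.39, 0.52 and 0.59, with a limma adjusted p of 0.816 each.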

How the data were processed

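The authors deposited log2 expression for each transcript cluster; Affymetrix Expression Console 1.1 and RMA are the tools named, per the submitters' processing notes. RMA removes background, equalises the distribution of probe intensities between arrays and summarises probes, so a change shared by all genes is not visible and differences of dim clusters shrink. RNA was taken with Trizol and 500 ng was labelled, per the labels' protocols. The genome build is not given in the sources used here. The log2 scale was read from the values, 0.918 to 14.3.

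Of 33297 clusters, 19460 with exactly 1 gene symbol were tested. Symbols were updated from RefSeq by Entrez gene identifier, and the cluster of highest mean stood for a gene. The siRNA groups of 3 arrays each were tested in limma 3.58.1 (R 4.3.3; linear model, empirical Bayes) without a filter or block, adjusted over all tested clusters; the code was tested on simulated data. The titles call the samples biological replicates without saying how they were grown, so p-values cover the spread between these arrays, which may be technical.

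The members and lists were chosen with earlier results of these data known. Some genes of the lists are not reported here. Named are all members, CTNNB1, the 3 genes of smallest p in each pathway list, the epithelial markers and the markers of other cell types. Also named are the 3 most correlated with the member of smallest p, which was also the member of largest SD. Others are said to be chosen after their values were seen. Alternatives left out each array, added a replicate block, left out dim clusters, weighted arrays, let the variance follow the mean level, repeated quantile normalisation or centred each array. Promoter sequences are from RefSeq, GRCh38.p14.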

Additional observations from a re-analysis of the deposited data

How the results depend on the processing

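No member passed limma's adjusted threshold under any of the alternatives run. With arrays weighted by quality, DUSP1 came nearest (log2 difference 1.24, adjusted p = 0.0528), DUSP6 turned to -0.00685 and SPRY4 to -0.018. When any 1 array was left out, SPRY4 ran from -0.41 to 0.27 and SPRED1 from -0.40 to 0.16, the members whose groups did not overlap numbered 3 to 6, those with an unadjusted p under 0.05 numbered 1 to 2, and the median of the members ran from 0.046 to 0.25. The count of 1 was without CTNNB1 siRNA replicate 3, for DUSP1. DUSP1 was joined by DUSP2 without CTNNB1 siRNA replicate 2 (limma unadjusted p = 0.0371, adjusted p = 0.657). Without control siRNA replicate 1 it was joined by SPRED1 (limma unadjusted p = 0.0491, adjusted p = 0.937), and in the other fits by DUSP10. The counts of 6 were without control siRNA replicate 1 or 2. Without replicate 1 of both groups, a fit chosen after the data were seen, DUSP6 was -0.34, SPRY4 was -0.25, 7 members had groups that did not overlap against 38% of all clusters, 3 had an unadjusted p under 0.05 against 7.49%, and the median was -0.0041. The cause of these shifts was not tested. Same-numbered arrays of the groups deviated together with correlations of 0.092, 0.12 and 0.098, not all above 0.1, so the numbers were not taken as pairs. Even so, every array correlated best with its own number, and arrays of different numbers gave -0.10 to 0.028. A replicate block leaves the differences of this balanced layout as they are and alters only the errors. With it the limma adjusted p of DUSP1 (log2 difference 1.44) was 0.743, 0 members passed and 2 had an unadjusted p under 0.05. The SE rose from 0.24 to 0.26 for DUSP1 and from 0.44 to 0.51 for DUSP6. It fell from 0.20 to 0.14 for DUSP10 (limma unadjusted p = 0.00395, adjusted p = 0.743) and from 0.36 to 0.22 for SPRY4. Each member had 1 cluster, so averaging clusters of a gene was not run. Of 181 recomputed values, 10 changed sign, 9 of them of single genes and 1 the median without replicate 1 of both groups, and 4 counts moved by more than 1.5 times.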
